A study of Homo sapiens with 26 samples.

Results

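The respiratory chain and the ATP synthase of mitochondria were followed here through the transcripts of their nuclear-encoded subunits. Members were all genes on the array with an NDUFA, NDUFB, NDUFC, NDUFS or NDUFV symbol followed by a number, SDHA to SDHD, CYC1, and genes whose symbols start with UQCR, COX4 to COX8, ATP5F, ATP5M or ATP5P, with ATP5MK left out. The rule found 77 of the 17283 genes: 33 of complex I, 3 of complex II, 8 of complex III, 17 of complex IV and 16 of complex V. Of these, 71 passed the filter on low intensities and were tested among 12962 genes. The other 6, COX4I2, COX6A2, COX6B2, COX7A1, COX7B2 and COX8C, lay under an intensity of 10 on every array; they encode isoforms of complex IV subunits used in particular tissues or states. No subunit encoded in mitochondrial DNA was analysed here, nor was SDHB.

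The cells were HCT116, a human colon carcinoma line, in an isogenic pair labelled wild type (WT) or p53KO (KO, lacking the tumour suppressor p53). Each label had 7 untreated arrays, 3 arrays after 20 nM and 3 arrays after 2 nM leptomycin B, which blocks the nuclear export receptor XPO1; exposure lasted 16 h in serum-containing McCoy medium. The 26 one-colour Illumina arrays of total RNA came on slides of 2 series. Untreated replicates 4 to 6 and all 20 nM arrays made up series 1. Untreated replicates 7 to 10 and all 2 nM arrays made up series 2, so dose and series cannot be told apart. The labels do not say how many clones stood behind each genotype, nor whether each replicate was a culture of its own. The p-values here rest on the scatter of these arrays alone, and that scatter may be technical.

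Complexes I, III and IV pass electrons from NADH to oxygen and pump protons across the inner mitochondrial membrane, complex II feeds in electrons from succinate, and complex V, the ATP synthase, uses the proton gradient to make ATP. Complex I is built from a conserved catalytic core and a large shell of accessory subunits that are needed for assembly and stability. Complexes III and IV hold both subunits made in the mitochondrion and subunits encoded in the nucleus. Complex V joins the catalytic F1 head, a ring of c subunits, a peripheral stalk and small membrane subunits. HCT116 cells, like other cancer lines in rich medium, use glycolysis as well as respiration.

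All 26 arrays had the same median intensity, 10.19, and 49.7% of all values were at or under 10. The export settings were not given, so equal medians do not show that the arrays were alike before processing. Arrays of a group correlated at 0.9795 to 0.9992 on the log2 scale. CDKN1A, which p53 induces, was lower in KO-labelled than in WT-labelled untreated arrays of series 1 (-2.27 ± 0.37, limma adjusted p = 0.000324) and higher in series 2 (2.61 ± 0.32, adjusted p = 1.84e-05), so the genotype labels of the series go against each other and are used below only as labels. The deleted gene was not analysed here and gives no check. XPO1 itself was at 0.47 ± 0.15 and 0.32 ± 0.15 in WT-labelled and KO-labelled cells at 20 nM (adjusted p = 0.017 and 0.112) and at 0.59 ± 0.14 and 0.54 ± 0.14 at 2 nM (0.00291 and 0.00484). In series 2 all WT-labelled arrays shared 1 slide and all KO-labelled arrays another, while in series 1 no slide held both treated and untreated arrays. Of 8 epithelial markers, EPCAM, KRT8, KRT18, KRT19 and CDX2 were over 10 on all arrays, VIL1 on none, and the summed intensity was 26653 to 40372.5. The 8 fibroblast markers summed to 24.98 to 52.6, with 6 of them, COL1A2, COL3A1, PDGFRA, PDGFRB, DCN and LUM, at or under 10 throughout and COL5A1 over 10 on all arrays. The 8 blood and endothelial markers on the array summed to 32.1 to 266.1, with CD3E, HBB, PECAM1, VWF and CDH5 at or under 10 throughout and HBA1 over 10 on all arrays.

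Leptomycin B moved the subunit transcripts unevenly, with small rises more common than falls. A change is the mean log2 of the treated arrays minus that of the untreated ones, within 1 label and series, and a call is an adjusted p under 0.05 from limma over all 12962 genes. In WT-labelled cells at 20 nM (n = 3 and 3), 34 of 71 members rose and 8 fell, against 21.1% of all genes called higher and 22.2% called lower. In KO-labelled cells at 20 nM (n = 3 and 3), 25 rose and 9 fell, against 18.3% and 18.8%. At 2 nM, 22 rose and 10 fell in WT-labelled cells (n = 3 and 4), against 17.4% and 19.1%, and 31 rose and 10 fell in KO-labelled cells (n = 3 and 4), against 21.6% and 21.8%. The shares of members called higher were 47.9%, 35.2%, 31% and 43.7%, above the share of all genes in each response, and the shares called lower were 11.3%, 12.7%, 14.1% and 14.1%, below it. Their median changes were 0.23, 0.14, 0.097 and 0.20.

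The rate of calls was higher among brighter genes. Of the 12962 genes tested, 8097 were over 10 on every array, including 70 of the 71 members. Of those 8097 genes, 27.8%, 24.8%, 23.2% and 28.6% were called higher in the 4 responses, in the order above, and 29%, 24.5%, 26.1% and 29.7% were called lower. Their median changes were 0.0011, 0.013, -0.022 and 0.00068. The share of members called higher lay above this brighter background in each response, by the narrowest margin in WT-labelled cells at 2 nM. Total RNA of whole cultures was measured, so fewer cells of a type and less RNA per cell cannot be told apart.

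**Figure D1:**
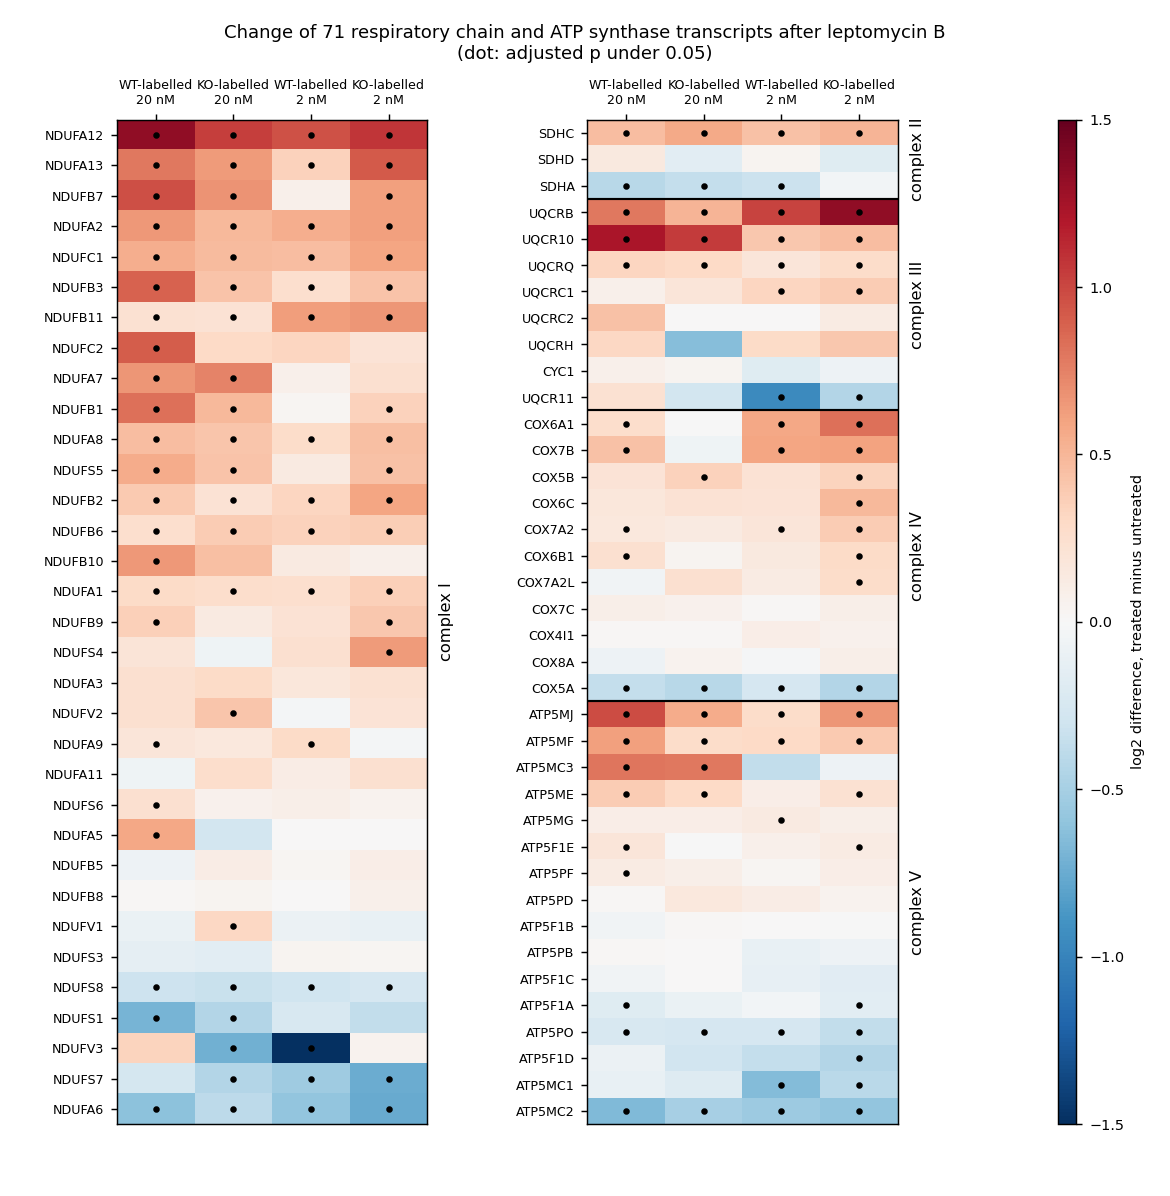
Heat map of the log2 difference (colour, treated minus untreated) of the 71 members tested, by complex, in the 4 responses; a dot marks an adjusted p under 0.05. Most rows of complex I are red, with NDUFS8, NDUFS1, NDUFV3, NDUFS7 and NDUFA6 at the bottom holding the blue calls, and complex V holds rows of little colour between ATP5MJ at the top and ATP5MC2 at the bottom.

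The 4 responses share no arrays, and the members called in several of them were called in the same direction each time. Changes in pairs of responses correlated at r = 0.523 to 0.805 across the members and 0.569 to 0.811 across all genes tested. Agreement between responses was thus not particular to the members. Of the 71 members, 21 were called in all 4 responses, 16 as higher and 5 as lower, against 8.16% and 8.81% of all genes. A further 9 were called in 3 responses, 13 in 2 and 12 in 1, and 16 in none. Of the 21, 8 risers and 4 fallers kept all 4 calls whichever single array was left out. Of all genes tested, 5.79% did so as higher and 6.37% as lower. As shares of the 71 members, the risers lay above the background in both counts. The fallers lay slightly below it in both, so falls in all 4 responses were not more common among members.

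NDUFA12, an accessory subunit of the matrix arm of complex I, had the largest rise of any member in WT-labelled cells at 20 nM. Its intensities were 1154, 994 and 841 on untreated WT-labelled arrays of series 1 and 2879, 2203 and 2422 after 20 nM. They were 1287, 1298 and 1298 on untreated KO-labelled arrays of series 1 and 2545, 2505 and 2915 after 20 nM. Every treated array was well over every untreated one, and the rise was 1.33 ± 0.10 (adjusted p = 3.58e-09) in WT-labelled and 1.03 ± 0.10 (adjusted p = 1.95e-07) in KO-labelled cells. In series 2 the untreated arrays read 1392, 1275, 1348 and 1324 (WT-labelled) and 1178, 1181, 1250.4 and 1360.4 (KO-labelled). After 2 nM they read 2426, 2472 and 2864 and 2539.6, 2612 and 2702. The rises were 0.95 ± 0.095 (adjusted p = 2.05e-07) and 1.08 ± 0.095 (adjusted p = 2.09e-08).

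UQCRB, a small subunit of complex III that takes part in binding ubiquinone, had the largest rise of any member at 2 nM. In series 2, untreated intensities were 1417, 1241, 1351 and 1663 in WT-labelled and 1025, 1037, 1203 and 1577 in KO-labelled arrays, and 2 nM intensities were 2600.5, 3059.7 and 2924 and 2889, 2748 and 3411. These groups lay far apart, with rises of 1.02 ± 0.13 (adjusted p = 6.3e-06) and 1.33 ± 0.13 (adjusted p = 1.28e-07). In series 1 the untreated arrays read 1466, 1883 and 1965 (WT-labelled) and 1584, 1799 and 1893 (KO-labelled). After 20 nM they read 3032, 3152 and 2945 and 2517, 2466 and 2531. The rises there were 0.79 ± 0.14 (adjusted p = 0.000155) and 0.51 ± 0.14 (adjusted p = 0.00778).

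ATP5MJ, a small membrane subunit of the ATP synthase, read 616, 560.4 and 516 on untreated and 1098, 1177 and 1067 on 20 nM arrays of WT-labelled cells. The KO-labelled arrays read 746, 859 and 782 untreated and 1212, 1135 and 1154 at 20 nM. The treated levels of the labels met within about the same range, while the untreated levels did not, and the rises were 0.98 ± 0.083 (adjusted p = 1.49e-08) and 0.55 ± 0.083 (adjusted p = 3.07e-05). In series 2 the WT-labelled arrays read 709, 724, 681 and 671 untreated and 841, 799.8 and 898 at 2 nM, and the KO-labelled arrays 635, 595, 545 and 475 and 893, 861 and 898. The rises were 0.28 ± 0.078 (adjusted p = 0.00751) and 0.66 ± 0.078 (adjusted p = 1.01e-06).

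The other 5 of these risers changed less. NDUFC1, an accessory subunit of the membrane arm of complex I, rose by 0.55, 0.47, 0.46 and 0.59 in the order WT-labelled and KO-labelled at 20 nM, then WT-labelled and KO-labelled at 2 nM. Its SEs were 0.082 to 0.088 and its adjusted p-values 0.000309 or less. SDHC, which anchors complex II in the membrane, rose by 0.46, 0.56, 0.44 and 0.51 (adjusted p = 0.00074 or less). NDUFB2, an accessory subunit of the distal membrane arm, rose by 0.39, 0.22, 0.32 and 0.60, the smallest and the largest both in KO-labelled cells. NDUFA1, which the membrane arm needs to assemble, rose by 0.29, 0.27, 0.25 and 0.36. UQCRQ, a small membrane subunit of complex III, rose by 0.32, 0.30, 0.19 and 0.27, at intensities of 8685 to 10357 on untreated and 11217 to 12151 on 20 nM arrays of WT-labelled cells. The treated arrays of UQCRQ lay above the untreated ones in each response.

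The 4 fallers that kept their calls come from complexes I, IV and V. ATP5MC2, from which part of the c subunit of the ATP synthase ring is made, read 12252, 10144 and 11065 on untreated and 6518, 7169.5 and 7428 on 20 nM arrays of WT-labelled cells, a change of -0.66 ± 0.12 (adjusted p = 0.000116). KO-labelled arrays read 12274, 9041 and 8561 untreated and 7092, 6937 and 6846 at 20 nM (-0.50 ± 0.12, adjusted p = 0.00213). The untreated replicate 4 was the highest of its group for both labels, and all treated arrays were below all untreated ones. At 2 nM ATP5MC2 changed by -0.54 ± 0.11 (adjusted p = 0.00055) and -0.59 ± 0.11 (adjusted p = 0.000188) in WT-labelled and KO-labelled cells. The 2 dimmer ATP5MC2 probes did not give the same picture. One, with a mean intensity of 28.3, was at -0.0058 ± 0.17 and 0.097 ± 0.17 at 20 nM and at -0.57 ± 0.16 in both labels at 2 nM, and the other was under 10 on all arrays. With the mean of all its probes, ATP5MC2 was at -0.13 in KO-labelled cells at 20 nM (adjusted p = 0.259).

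COX5A, a matrix-side subunit of complex IV, read 7389, 7842, 7719 and 8165 on untreated and 5612, 5767 and 5832 on 2 nM arrays of KO-labelled cells. All treated arrays were below the untreated ones, a change of -0.44 ± 0.058 (adjusted p = 4.53e-06). It was at -0.25 ± 0.058 (adjusted p = 0.00214) in WT-labelled cells at 2 nM and at -0.36 ± 0.062 (adjusted p = 0.00011) and -0.41 ± 0.062 (adjusted p = 3.14e-05) in WT-labelled and KO-labelled cells at 20 nM. NDUFS8, a core subunit of complex I that carries iron-sulfur clusters, changed by -0.31, -0.34, -0.29 and -0.25 in the same order, with adjusted p-values of 0.000249 or less. ATP5PO, which ties the peripheral stalk of the synthase to the F1 head, changed by -0.24, -0.26, -0.25 and -0.36 (adjusted p = 0.00259 or less). For none of these 4 genes did the difference between the labels' responses pass the threshold at either dose (adjusted p = 0.169 or more), which does not show that the responses were equal. With the replicate number as a block, that of COX5A at 2 nM passed (-0.19, adjusted p = 0.0267).

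**Figure D2:**
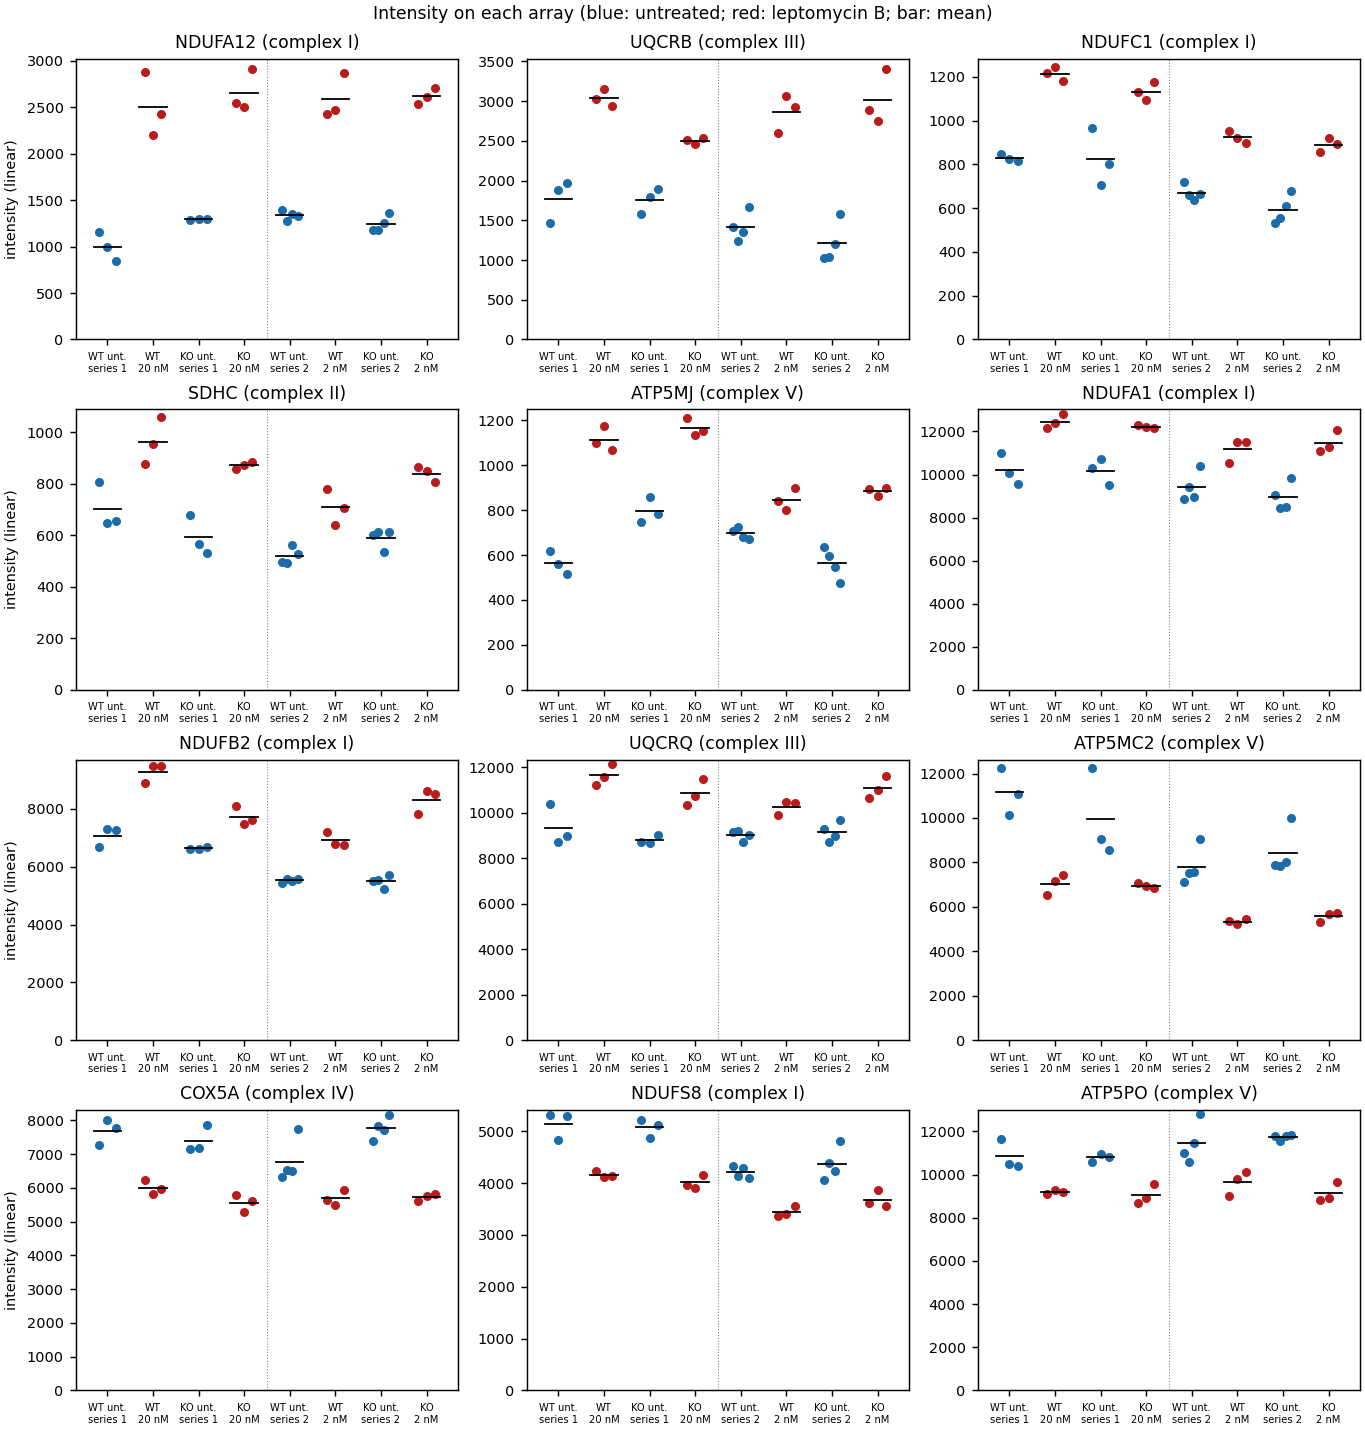
Linear intensity of the 12 members that kept their calls in all 4 responses, 1 point per array, with the mean of each group as a bar; blue is untreated and red leptomycin B, and the dotted line parts series 1 from series 2. The red points lie above the blue ones of the same label and series in the 8 risers and below them in ATP5MC2, COX5A, NDUFS8 and ATP5PO.

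Because these genes moved in every response, the letters before their transcription starts were read. Of the 77 members, 63 had a promoter window (250 bases before to 50 after a start) in the RefSeq table for GRCh38.p14, and the first listed window stood for each gene. Factors known to act on respiratory genes are NRF1, YY1, the ETS factor GABP and CREB, and 6 motifs were searched on both strands: GCGCA and GCGC with any base between them (NRF1), AAGATGGC (YY1), CCGGAAG (ETS), TGACGTCA (CRE), CCAAT and TATAAA, none of which contains another. The stretches shown are those of the 8 members, among the 12, with 1 listed start, from 150 bases before the start to 30 after it, 5′ to 3′ on the strand of the gene. Capitals mark the motif letters.
NDUFA12, chr12:95003668-95003847 (- strand): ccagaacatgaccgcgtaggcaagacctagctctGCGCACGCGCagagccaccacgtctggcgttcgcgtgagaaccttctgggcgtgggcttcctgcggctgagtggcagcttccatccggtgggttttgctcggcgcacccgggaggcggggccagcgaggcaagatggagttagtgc
ATP5MJ, chr14:103921500-103921679 (- strand): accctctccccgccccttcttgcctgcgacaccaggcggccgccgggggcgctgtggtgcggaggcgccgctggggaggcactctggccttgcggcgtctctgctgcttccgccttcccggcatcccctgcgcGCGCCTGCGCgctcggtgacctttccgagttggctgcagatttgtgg
NDUFA1, chrX:119871682-119871861 (+ strand): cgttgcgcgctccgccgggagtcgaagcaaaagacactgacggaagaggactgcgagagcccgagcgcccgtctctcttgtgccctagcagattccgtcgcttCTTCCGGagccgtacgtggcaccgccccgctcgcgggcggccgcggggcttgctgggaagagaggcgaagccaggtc
NDUFB2, chr7:140696558-140696737 (+ strand): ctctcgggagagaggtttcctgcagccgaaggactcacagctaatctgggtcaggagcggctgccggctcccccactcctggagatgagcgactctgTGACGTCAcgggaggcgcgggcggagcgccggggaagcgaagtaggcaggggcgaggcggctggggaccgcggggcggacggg
UQCRQ, chr5:132866492-132866671 (+ strand): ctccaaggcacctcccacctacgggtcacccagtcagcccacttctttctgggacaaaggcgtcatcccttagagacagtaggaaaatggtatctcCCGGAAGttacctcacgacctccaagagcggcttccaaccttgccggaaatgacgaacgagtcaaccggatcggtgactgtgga
COX5A, chr15:74938044-74938223 (- strand): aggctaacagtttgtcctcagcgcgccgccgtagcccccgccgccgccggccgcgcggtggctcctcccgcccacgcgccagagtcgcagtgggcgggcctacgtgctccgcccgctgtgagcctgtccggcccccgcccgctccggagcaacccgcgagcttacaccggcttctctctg
NDUFS8, chr11:68030531-68030710 (+ strand): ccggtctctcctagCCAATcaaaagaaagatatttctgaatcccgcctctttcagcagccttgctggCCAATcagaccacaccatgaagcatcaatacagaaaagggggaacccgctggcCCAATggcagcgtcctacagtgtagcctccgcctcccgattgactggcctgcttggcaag
ATP5PO, chr21:33915775-33915954 (- strand): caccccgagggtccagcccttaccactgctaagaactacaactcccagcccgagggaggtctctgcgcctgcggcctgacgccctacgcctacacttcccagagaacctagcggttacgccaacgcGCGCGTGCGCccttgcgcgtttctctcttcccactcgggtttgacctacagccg
Within these stretches, NDUFA12 and ATP5MJ, which rose, and ATP5PO, which fell, each hold the NRF1 letters. NDUFA1 and UQCRQ hold the ETS letters, NDUFB2 the CRE letters and NDUFS8 CCAAT in 3 places, and COX5A holds no motif searched.

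Over the whole windows, the NRF1 letters stood in 23.8% of the 63 member promoters, in 8.92% of the 13795 promoters of genes on the array and in 6.28% of all 27305 promoters of the table. The YY1 letters stood in 15.9%, 4.13% and 3.03%, the ETS letters in 28.6%, 14.6% and 10.7%, and the CRE letters in 4.76%, 2.67% and 1.98%. CCAAT stood in 36.5% of member promoters and 36.7% of those on the array, and TATAAA in 11.1% and 9.17%. Of the 16 members called higher in all 4 responses, 13 had a window: 4 held the NRF1 letters, 3 the ETS letters and 0 the YY1 letters. All 5 members called lower in all 4 responses had a window: 1 held the NRF1 letters, 2 the YY1 letters and 0 the ETS letters. A match is a run of letters in this window, not a measured site.

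Complex I held 20 of the 34 rises in WT-labelled and 16 of the 25 in KO-labelled cells at 20 nM, and 11 of 22 and 15 of 31 at 2 nM. All but 2 of these, both in KO-labelled cells at 20 nM, were of accessory subunits. Of 27 accessory subunits, 20 rose and 1 fell in WT-labelled cells at 20 nM (median 0.39), 14 and 2 in KO-labelled cells at 20 nM (0.29), 11 and 2 in WT-labelled cells at 2 nM (0.22) and 15 and 1 in KO-labelled cells at 2 nM (0.36). Of the 6 core subunits, 0 rose and 2 fell in 3 of the responses, and 2 rose and 3 fell in KO-labelled cells at 20 nM. The medians of the core were -0.20, -0.25, -0.16 and -0.18. At an unadjusted p under 0.05 from limma, 0 core subunits were higher in those 3 responses and 2 in KO-labelled cells at 20 nM. The shares of accessory subunits called higher were 74.1%, 51.9%, 40.7% and 55.6%, against 21.1%, 18.3%, 17.4% and 21.6% of all genes. Those of core subunits called lower were 33.3%, 50%, 33.3% and 33.3%, against 22.2%, 18.8%, 19.1% and 21.8% of all genes. Of the genes over 10 on every array, 29%, 24.5%, 26.1% and 29.7% were called lower, so the 33.3% shares are near that background. With 6 core subunits, the core shares rest on 2 or 3 genes. The core falls at 20 nM include NDUFS1, whose probe was dim. No test of core against accessory subunits was made.

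Among the accessory subunits, NDUFA13, also known as GRIM-19, rose by 0.79 ± 0.11 (adjusted p = 9.25e-06) in WT-labelled and 0.64 ± 0.11 (adjusted p = 0.000137) in KO-labelled cells at 20 nM and by 0.92 ± 0.10 (adjusted p = 6.19e-07) in KO-labelled cells at 2 nM. In WT-labelled cells at 2 nM it was at 0.34 ± 0.10 (adjusted p = 0.0137), a call lost without 2 nM replicate 3 (adjusted p = 0.0552). NDUFB3, of the distal membrane arm, rose by 0.89 ± 0.083 (adjusted p = 6.04e-08), its largest change, in WT-labelled cells at 20 nM. NDUFS5, at the membrane arm's intermembrane face, rose by 0.56, 0.42 and 0.44 in the same responses as NDUFB7 (0.97, 0.67 and 0.61), and both missed the threshold in WT-labelled cells at 2 nM (0.14 ± 0.068, adjusted p = 0.136 and 0.077 ± 0.16, adjusted p = 0.893). NDUFB11, also of the membrane arm, rose by 0.62 ± 0.067 (adjusted p = 5.37e-07) and 0.66 ± 0.067 (adjusted p = 1.32e-07) at 2 nM and by 0.23 and 0.22 at 20 nM. Its 20 nM calls were lost without 20 nM replicate 2 or untreated replicate 6 of the WT label (adjusted p = 0.0584 and 0.0723) and without 20 nM replicate 2 or untreated replicate 5 of the KO label (0.119 and 0.0859). NDUFS4 was called in KO-labelled cells at 2 nM, with 0.64 ± 0.10 (adjusted p = 4.62e-05). Its difference from the response of WT-labelled cells at that dose was 0.40 ± 0.15 (adjusted p = 0.0923).

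The accessory subunit that fell in all 4 responses was NDUFA6, which sits beside the quinone end of the matrix arm. Its intensities were 437, 347 and 375 on untreated and 235, 276 and 242 on 20 nM arrays of WT-labelled cells, and 353, 365, 348 and 423 on untreated and 235, 219.8 and 206 on 2 nM arrays of KO-labelled cells. The treated arrays were lower in both, with changes of -0.62 ± 0.13 (adjusted p = 0.00048) and -0.75 ± 0.12 (adjusted p = 3e-05). It was at -0.60 ± 0.12 (adjusted p = 0.000477) in WT-labelled cells at 2 nM and at -0.39 ± 0.13 (adjusted p = 0.0193) in KO-labelled cells at 20 nM, where the call was lost without 20 nM replicate 3 or untreated replicate 4 (adjusted p = 0.075 and 0.119). Of the core subunits, NDUFS7, which carries the last iron-sulfur cluster before ubiquinone, was at -0.44 ± 0.12 (adjusted p = 0.00803) in KO-labelled cells at 20 nM and at -0.53 ± 0.12 (adjusted p = 0.00121) and -0.75 ± 0.12 (adjusted p = 2.84e-05) at 2 nM. It was at -0.27 ± 0.12 (adjusted p = 0.0967) in WT-labelled cells at 20 nM. NDUFV1, which binds NADH, and NDUFV2 rose in KO-labelled cells at 20 nM (0.31 ± 0.097, adjusted p = 0.0144 and 0.42 ± 0.12, adjusted p = 0.0105). The NDUFV1 call was lost without 20 nM replicate 3 or untreated replicate 5 (adjusted p = 0.0561 and 0.087), and that of NDUFV2 without untreated replicate 5 or 6 (0.0768 and 0.0692).

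Some complex I probes were dim, and their changes rest on few units of intensity above the floor of 10. NDUFS1 had a mean intensity of 17.0, NDUFB1 of 14.6, NDUFC2 of 19.3, NDUFV3 of 54.8 and NDUFA5 of 7.9. With a floor of 20, NDUFS1 was at -0.098 in WT-labelled cells at 20 nM (limma adjusted p = 0.245). With the floor of 10 it was at -0.70 ± 0.17 there (adjusted p = 0.00234). In KO-labelled cells at 20 nM NDUFS1 was at -0.44 with the floor of 10 and at -0.090 with that of 20 (adjusted p = 0.321). That call was also lost without 20 nM replicate 1, 2 or 3 or untreated replicate 5 or 6 of the KO label.

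**Figure D3:**
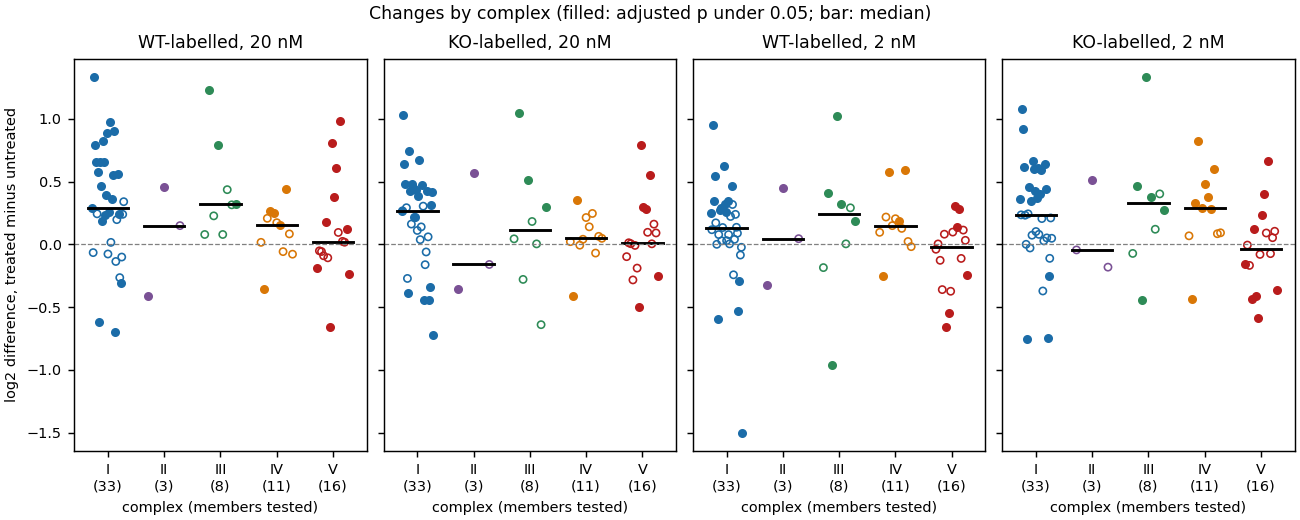
Log2 difference (treated minus untreated) of each member in the 4 responses, by complex, with the number of members tested in brackets; filled points have an adjusted p under 0.05 and the bar is the median. The medians of complex I lie between 0.13 and 0.29 and those of complex V between -0.040 and 0.020.

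The 3 measured subunits of complex II went separate ways. SDHC rose in all responses, as given above. SDHA, the flavoprotein that oxidises succinate, changed by -0.41 ± 0.068 (adjusted p = 5.53e-05) and -0.36 ± 0.068 (adjusted p = 0.000316) in WT-labelled and KO-labelled cells at 20 nM and by -0.32 ± 0.063 (adjusted p = 0.000429) in WT-labelled cells at 2 nM. It was at -0.045 ± 0.063 (adjusted p = 0.693) in KO-labelled cells at 2 nM. SDHD, the second membrane anchor and partner of SDHC, was at 0.15, -0.16, 0.045 and -0.18 and passed the threshold in no response.

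In complex III, 3 of 8 members rose in each label at 20 nM and 4 rose and 1 fell in each label at 2 nM. Falls at 20 nM were 0 in both labels, where 22.2% and 18.8% of all genes were called lower. At an unadjusted p under 0.05 from limma they were 0 in WT-labelled and 1 in KO-labelled cells. Without untreated replicates 4 and 10, 1 fall was called in KO-labelled cells at 20 nM, against 27.2% of all genes. The medians were 0.32 and 0.11 at 20 nM and 0.24 and 0.33 at 2 nM. The share called higher was 37.5% in each label at 20 nM and 50% in each label at 2 nM. Of all genes, 21.1% and 18.3% were higher at 20 nM and 17.4% and 21.6% at 2 nM. The share called lower at 2 nM was 12.5% in each label, against 19.1% and 21.8% of all genes. UQCRB and UQCRQ are described above. UQCR10, another small subunit, read 414, 286 and 301 on untreated and 760.3, 762 and 785 on 20 nM arrays of WT-labelled cells, and 480.0, 405 and 405 and 939, 916 and 806 in KO-labelled cells. The treated arrays were over the untreated ones by more than 2-fold in both means, with changes of 1.22 ± 0.14 (adjusted p = 6.04e-07) and 1.05 ± 0.14 (adjusted p = 6.93e-06). At 2 nM it was at 0.41 ± 0.13 (adjusted p = 0.0169) and 0.46 ± 0.13 (adjusted p = 0.00589); the first call was lost without 2 nM replicate 1 or 3 (adjusted p = 0.0661 and 0.0512). UQCR11, the smallest subunit of the complex, was dim (mean 63.3) and was at -0.96 ± 0.14 (adjusted p = 1.74e-05) in WT-labelled cells at 2 nM and at -0.44 ± 0.14 (adjusted p = 0.0136) in KO-labelled cells, a call lost without 2 nM replicate 3 (adjusted p = 0.0981). UQCRC1, a core protein, rose at 2 nM in KO-labelled cells (0.38 ± 0.11, adjusted p = 0.00704) and in WT-labelled cells (0.32 ± 0.11, adjusted p = 0.0242), where the call was lost without untreated replicate 7 or 8 or 2 nM replicate 1 or 2 (adjusted p from 0.0557 to 0.0934). CYC1, which encodes cytochrome c1, UQCRC2 and UQCRH passed the threshold in no response.

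In complex IV, 7 of 11 members rose and 1, COX5A, fell in KO-labelled cells at 2 nM (median 0.29). In WT-labelled cells 4 rose and 1 fell at 20 nM (0.15) and 3 rose and 1 fell at 2 nM (0.15). In KO-labelled cells at 20 nM 1 rose and 1 fell (0.048). The shares called higher, WT-labelled then KO-labelled, were 36.4% and 9.09% at 20 nM and 27.3% and 63.6% at 2 nM. Those of all genes were 21.1%, 18.3%, 17.4% and 21.6%, so the 9.09% lay below the background. The share called lower was 9.09% in each response, against 22.2%, 18.8%, 19.1% and 21.8% of all genes. For 0 of the 11 members did the responses of the labels differ at 2 nM in limma's direct test. Of all genes, 5.94% and 5.99% were called higher and lower there, so 0 of 11 is near the background. At an unadjusted p under 0.05 limma called 2 members as higher and 1 as lower in KO-labelled cells. With the replicate number as a block, the differences of COX6A1 (0.25, limma adjusted p = 0.0285) and COX5A (-0.19, adjusted p = 0.0267) passed. Without untreated replicates 4 and 10, 9 rose and 1 fell in each label at 2 nM. At 20 nM 7 rose and 1 fell in WT-labelled and 4 rose and 1 fell in KO-labelled cells. Of all genes, 24.6% and 27.6% were then higher at 2 nM and 27.2% and 26.7% at 20 nM. COX6A1, the form of subunit 6A that most tissues use, read 2203, 2302, 2247 and 2545 on untreated and 3501, 3435 and 3454 on 2 nM arrays of WT-labelled cells, and 1883, 1924, 1976 and 2503 and 3508, 3817 and 3612 in KO-labelled cells. Both treated groups lay above the untreated ones, with rises of 0.58 ± 0.083 (adjusted p = 1.58e-05) and 0.82 ± 0.083 (adjusted p = 1.17e-07). At 20 nM COX6A1 was at -0.0071 ± 0.088 (adjusted p = 1) in KO-labelled cells and at 0.27 ± 0.088 (adjusted p = 0.0188) in WT-labelled cells, a call lost without 20 nM replicate 1 or untreated replicate 4 (adjusted p = 0.07 and 0.067). COX7B rose at 2 nM in both labels (0.59 ± 0.13, adjusted p = 0.00178 and 0.60 ± 0.13, adjusted p = 0.00111), and COX7A2 and COX6C rose in KO-labelled cells at 2 nM (0.38 ± 0.051, adjusted p = 5.48e-06 and 0.48 ± 0.10, adjusted p = 0.000782). COX4I1, the general form of subunit 4, was at 0.016, 0.021, 0.095 and 0.068, with SEs of 0.040 to 0.043, and passed the threshold in no response; nor did COX7C and COX8A.

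Complex V had medians near 0, at 0.020, 0.0086, -0.018 and -0.040 over its 16 members, with members moving both ways. Of them 6 rose and 3 fell in WT-labelled and 4 rose and 2 fell in KO-labelled cells at 20 nM, and 3 rose and 3 fell and 4 rose and 5 fell at 2 nM. The shares called higher were 37.5%, 25%, 18.8% and 25%, against 21.1%, 18.3%, 17.4% and 21.6% of all genes. Those called lower were 18.8%, 12.5%, 18.8% and 31.2%, against 22.2%, 18.8%, 19.1% and 21.8%, so several are near the background. Of the genes over 10 on every array, 27.8%, 24.8%, 23.2% and 28.6% were called higher. The complex V shares called higher at 2 nM lay below that brighter background. ATP5F1B, the catalytic beta subunit of F1, was the member of the complex with the highest mean intensity and was at -0.052 ± 0.045, 0.012 ± 0.045, 0.0030 ± 0.042 and -0.0061 ± 0.042. The other F1 subunits ATP5F1A (alpha), ATP5F1C (gamma) and ATP5F1E (epsilon) lay between -0.19 and 0.18 in every response. ATP5F1A fell and ATP5F1E rose in the 20 nM response of the WT label and the 2 nM response of the KO label. ATP5F1D (delta) fell in KO-labelled cells at 2 nM (-0.44 ± 0.15, adjusted p = 0.0242) and was at -0.091, -0.28 and -0.36 in the other responses, in the order used above. The KO-labelled 2 nM calls of ATP5F1A, ATP5F1D and ATP5F1E were all lost without 2 nM replicate 3 (adjusted p = 0.0727, 0.0887 and 0.0619), those of ATP5F1A and ATP5F1D also without untreated replicate 10 (0.0647 and 0.0891), and that of ATP5F1A without 2 nM replicate 1 (0.0935). The second, dimmer probe of ATP5F1D was at -0.49, -0.35, -0.48 and -0.83. Of the 4 small membrane subunits, 3 rose in each response, ATP5MJ in all, ATP5MF in all, ATP5ME in 3 and ATP5MG in WT-labelled cells at 2 nM. ATP5ME rose by 0.38 ± 0.057 (adjusted p = 1.94e-05), 0.30 ± 0.057 (adjusted p = 0.000336) and 0.23 ± 0.053 (adjusted p = 0.00126) in both labels at 20 nM, WT first, and in the KO label at 2 nM. ATP5MF was at 0.61 ± 0.10 (adjusted p = 7.37e-05) in WT-labelled cells at 20 nM and at 0.28 ± 0.10 (adjusted p = 0.0397) in KO-labelled cells, a call lost without KO-labelled 20 nM replicate 1, 2 or 3 or untreated replicate 5 or 6 (adjusted p from 0.0545 to 0.135).

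The c subunit of the ring is encoded by ATP5MC1, ATP5MC2 and ATP5MC3, which give the same mature protein, and their transcripts did not move together. ATP5MC3, whose probe was dim (mean 66.2), rose by 0.81 ± 0.21 (adjusted p = 0.00437) and 0.79 ± 0.21 (adjusted p = 0.00603) at 20 nM and was at -0.37 ± 0.20 (adjusted p = 0.166) and -0.080 ± 0.20 (adjusted p = 0.911) at 2 nM. ATP5MC1 was at -0.65 ± 0.092 (adjusted p = 1.29e-05) and -0.41 ± 0.092 (adjusted p = 0.00116) at 2 nM and at -0.11 ± 0.098 (adjusted p = 0.451) and -0.19 ± 0.098 (adjusted p = 0.147) at 20 nM. A second, dimmer ATP5MC1 probe (mean 399.2 against 3899.6) was at 0.74 ± 0.12 in both labels at 20 nM, so the probes of this gene disagree there. At 2 nM that probe was at -0.18 ± 0.11 in WT-labelled and 0.029 ± 0.11 in KO-labelled cells. The 2 nM falls of ATP5MC1 thus rest on the brighter probe. ATP5MC2 was lower in all 4 responses by its brightest probe, as given above.

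Untreated cells of the labels differed in few of these transcripts, and in opposite senses in the 2 series. Differences are KO-labelled minus WT-labelled. In series 1 (n = 3 and 3), 5 members were higher and 5 lower, against 7.07% and 7.79% of all genes, and in series 2 (n = 4 and 4), 4 were higher and 5 lower, against 4.36% and 4.79%. The members' shares of 7.04% and 7.04%, and of 5.63% and 7.04%, are near those backgrounds. With the replicate number as a block, 8 were higher and 11 lower in series 1 and 13 and 10 in series 2. Calls over all genes, both directions together, rose with it from 1927 to 3997 in series 1 and from 1186 to 2786 in series 2. The counts of series 1 moved most with single arrays: those higher were 9, 3 and 1 when replicate 4, 5 or 6 of the WT label was left out, and 2 when replicate 6 of the KO label was. Those lower were 13 with replicate 4 of the KO label left out, 1 with its replicate 5 or 6 left out, and 3 with replicate 4 or 5 of the WT label left out. In series 2 those lower were 11 without KO-labelled replicate 10 and 3 without KO-labelled replicate 7.

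The 2 differences share no arrays and had r = -0.725 and Spearman's rho = -0.617 across the 71 members, which are not independent replicates, and r = -0.716 across all genes tested. Of the members, 53 had opposite signs in the 2 series. ATP5MJ, NDUFA3, NDUFB6 and NDUFV3 were called in both series, all 4 in opposite directions, where 5.13% of all genes were called so. NDUFA3, an accessory subunit of complex I, read 4747, 3514 and 3479.9 on WT-labelled and 3252, 2385 and 2569 on KO-labelled arrays of series 1, and 2172, 2120.2, 2171 and 2403 and 3222, 2896, 3349 and 3940.0 in series 2. It was at -0.51 ± 0.12 (adjusted p = 0.00578) and 0.59 ± 0.10 (adjusted p = 0.000732), and the groups did not overlap in either series. ATP5MJ was at 0.50 ± 0.083 (adjusted p = 0.000409) in series 1 and -0.32 ± 0.072 (adjusted p = 0.00751) in series 2. NDUFB6 was at 0.28 ± 0.076 (adjusted p = 0.0183) and -0.32 ± 0.066 (adjusted p = 0.0033); the first call was lost without WT-labelled or KO-labelled replicate 6 (adjusted p = 0.114 and 0.0515). NDUFV3 was at -0.72 ± 0.18 (adjusted p = 0.011) and 0.68 ± 0.16 (adjusted p = 0.00782); the first was lost when replicate 5 of either label or replicate 6 of the KO label was left out (adjusted p = 0.0553, 0.0838 and 0.0642). On the only slide of series 1 with untreated arrays of both labels, KO-labelled replicate 4 differed from the mean of the 3 WT-labelled arrays by 0.41 for ATP5MJ, -0.25 for NDUFA3, 0.38 for NDUFB6 and -0.20 for NDUFV3. Against WT-labelled replicate 4 alone, its pair by number, it differed by 0.27, -0.55, 0.22 and 0.057, so NDUFV3 had the other sign. Tested directly, the difference between the series was called for 9 members as higher in series 1 and 8 as lower. Of all genes, 10.6% and 10.4% were called so. With the replicate block 13 and 16 members were called, and calls over all genes, both directions together, rose from 2716 to 4624. The count of those lower was 5 when replicate 4, 6, 7 or 8 of the WT label or replicate 6 or 10 of the KO label was left out, 4 without replicate 5 of the KO label and 15 without its replicate 4. As each label had its own slide in series 2, label and slide cannot be told apart there.

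**Figure D4:**
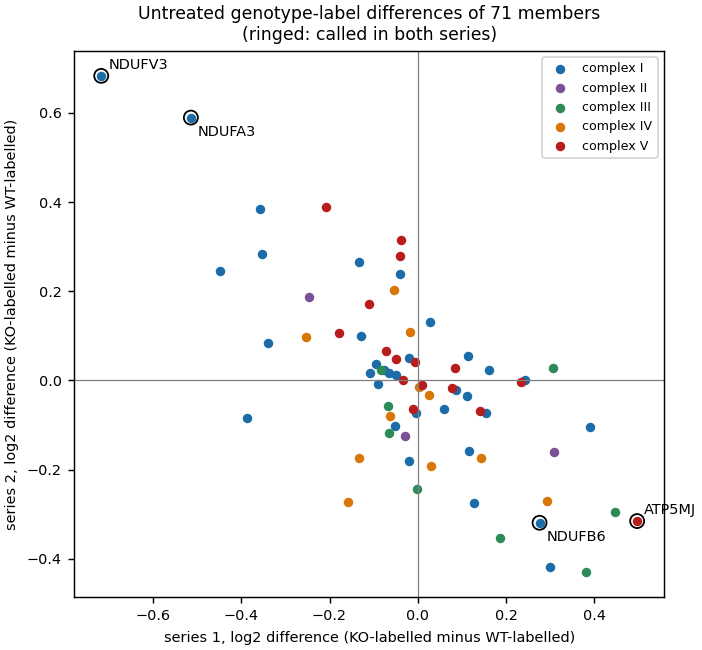
Untreated difference of the labels (log2, KO-labelled minus WT-labelled) of each of the 71 members in series 1 (horizontal) and series 2 (vertical), coloured by complex. The points run from upper left to lower right (r = -0.725), with NDUFV3 and NDUFA3 at one end and ATP5MJ and NDUFB6, also called in both series, towards the other.

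Responses of the 2 labels were then compared directly, as KO-labelled minus WT-labelled. At 20 nM 0 members responded more positively in KO-labelled cells and 4 less, against 4.92% and 3.93% of all genes; at an unadjusted p under 0.05 the limma counts were 1 and 13. At 2 nM 6 were more positive and 1 less, against 5.94% and 5.99%. These counts also moved with single arrays. At 20 nM those less positive were 8 and 7 when replicate 4 of the WT or KO label was left out and 2 without KO-labelled 20 nM replicate 3 or WT-labelled replicate 6, and those more positive were 3 without KO-labelled replicate 4 and 1 without WT-labelled replicate 5 or 6. At 2 nM those more positive were 10 without KO-labelled replicate 10 and 3 without WT-labelled replicate 8, KO-labelled replicate 9, WT-labelled 2 nM replicate 1 or 2 or KO-labelled 2 nM replicate 1 or 3. Those less positive were 4 with replicate 10 of the WT label left out, and 0 with 2 nM replicate 3 of that label or 2 nM replicate 1 of the KO label left out.

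NDUFV3, a small accessory subunit at the NADH end of complex I, had the largest difference of responses at both doses. Its dim probe read 54, 51.6, 57.6 and 50.9 on untreated and 18.4, 18.9 and 19.4 on 2 nM arrays of WT-labelled cells, and 99.2, 85, 101 and 63.7 and 95, 88.9 and 82.8 in KO-labelled cells. The WT-labelled groups were far apart and the KO-labelled groups overlapped, with changes of -1.5 ± 0.17 (adjusted p = 9.8e-07) and 0.048 ± 0.17 (adjusted p = 1) and a difference of 1.55 ± 0.24 (adjusted p = 0.000152). At 20 nM it read 45.8, 62.7 and 57.2 untreated and 68.2, 70.2 and 69.5 treated in WT-labelled cells, and 47.7, 26.5 and 29.2 and 17.6, 22.5 and 20.9 in KO-labelled cells. The changes were 0.34 ± 0.18 (adjusted p = 0.148) and -0.72 ± 0.18 (adjusted p = 0.00375), the latter -0.46 without KO-labelled replicate 4, and the difference was -1.06 ± 0.26 (adjusted p = 0.0123). With series 1 fitted alone, the 20 nM difference missed the threshold (limma adjusted p = 0.0908). NDUFV3 thus fell in KO-labelled cells of series 1 and in WT-labelled cells of series 2, the cells with the lower untreated CDKN1A in each series.

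NDUFA13 and NDUFB2 rose more in KO-labelled cells at 2 nM, with differences of 0.57 ± 0.15 (adjusted p = 0.0127) and 0.27 ± 0.056 (adjusted p = 0.0022). At 20 nM the NDUFB2 difference was -0.17 ± 0.060 (adjusted p = 0.0796). ATP5MJ differed at both doses in opposite senses, by -0.43 ± 0.12 (adjusted p = 0.0265) and 0.38 ± 0.11 (adjusted p = 0.0281). Its 20 nM call was lost without KO-labelled 20 nM replicate 2 or 3, WT-labelled 20 nM replicate 2, WT-labelled replicate 6 or KO-labelled replicate 5 (adjusted p from 0.0576 to 0.0795). Its 2 nM call was lost when any of 7 arrays was left out: replicate 7 or 8 (untreated) or replicate 1 or 2 (2 nM) of the WT label, or replicate 9 (untreated) or replicate 1 or 3 (2 nM) of the KO label (adjusted p from 0.0503 to 0.0854). NDUFB3 rose less in KO-labelled cells at 20 nM (-0.45 ± 0.12, adjusted p = 0.0192), a call lost without KO-labelled 20 nM replicate 3 or WT-labelled replicate 6 (adjusted p = 0.0609 and 0.0556). This call was also lost with series 1 fitted alone (limma adjusted p = 0.104).

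Untreated replicates 4 and 10 of both labels stood apart from the other untreated arrays in these transcripts. The median deviation of the 71 members from the untreated mean of their label and series was 0.12 and 0.057 on replicate 4 of the WT and KO labels, against -0.073 to -0.025 on replicates 5 and 6, and 0.10 and 0.12 on replicate 10, against -0.041 to -0.016 on replicates 7 to 9. The treated arrays had medians of 0.081 to 0.25. Without replicates 4 and 10 of both labels, 45 members rose and 9 fell in WT-labelled cells and 35 and 13 in KO-labelled cells at 20 nM, and 38 and 15, and 42 and 12, at 2 nM. All genes were called more often as well, with 27.2%, 26.7%, 24.6% and 27.6% higher and 28.7%, 27.2%, 26.7% and 27.7% lower. In all 4 responses 22 were then higher and 5 lower, against 10.8% and 11.2% of all genes. The medians of complex I became 0.34, 0.33, 0.19 and 0.31, and those of complex V 0.12, 0.044, 0.010 and -0.032.

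**Figure D5:**
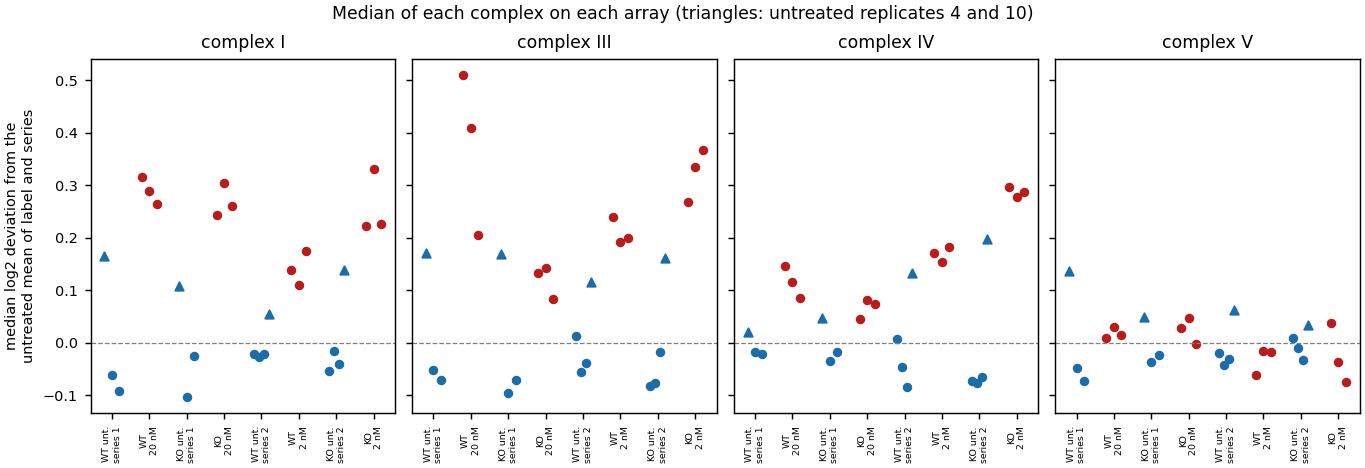
Median log2 deviation of the members of complexes I, III, IV and V on each array from the untreated mean of its label and series; red is leptomycin B, blue untreated, and triangles are untreated replicates 4 and 10. The triangles stand above the other untreated arrays in each complex, and the treated arrays of complex I lie higher still.

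Genes that serve the chain were counted in the same 4 responses, in the order WT-labelled and KO-labelled at 20 nM, then at 2 nM, where 21.1%, 18.3%, 17.4% and 21.6% of all genes were higher and 22.2%, 18.8%, 19.1% and 21.8% lower. Of 45 factors that assemble the complexes, 16 were higher and 6 lower in WT-labelled and 14 and 5 in KO-labelled cells at 20 nM, and 5 and 11, and 11 and 13, at 2 nM. These are 35.6%, 31.1%, 11.1% and 24.4% higher and 13.3%, 11.1%, 24.4% and 28.9% lower, the 24.4% higher being near the background. COX11, which delivers copper to complex IV, rose by 1.94 in WT-labelled cells at 20 nM and by 1.16 and 1.07 at 2 nM. SCO2, another copper chaperone and a known p53 target, rose by 1.84 and 1.49 at 20 nM, and BCS1L, which inserts the iron-sulfur protein of complex III, by 1.64 and 1.40. UQCC2, a complex III factor, changed by -1.06 and -1.13 at 2 nM. Of 15 genes of mitochondrial transcription and its regulators that were tested, 5 were higher and 1 lower, 6 and 5, 6 and 4, and 4 and 5, or 33.3%, 40%, 40% and 26.7% higher and 6.67%, 33.3%, 26.7% and 33.3% lower. TFAM, which packages and transcribes mitochondrial DNA, rose by 1.67, 1.36, 1.44 and 1.12. GABPA, the DNA-binding subunit of the ETS factor named above, rose by 1.02 and 0.92 at 20 nM and by 0.76 in KO-labelled cells at 2 nM. Other genes of this list fell. TFB1M changed by -1.12 in WT-labelled and -1.02 in KO-labelled cells at 2 nM, and POLG2 by -0.96 in KO-labelled cells at 20 nM.

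Of 17 citric acid cycle genes, 5 were higher and 3 lower, 5 and 2, 3 and 3, and 4 and 4. At 2 nM these shares, 17.6% each way and 23.5% each way, are near those of all genes, and at 20 nM they were 29.4% higher in both labels and 17.6% and 11.8% lower. CS, citrate synthase, changed by -0.82, -0.63, -0.42 and -0.80, and IDH3B, a subunit of isocitrate dehydrogenase, by 0.72, 0.58 and 0.60. Of 23 genes of mobile carriers and links to the chain, 10 were higher and 7 lower, 8 and 5, 6 and 7, and 8 and 7, which is 43.5%, 34.8%, 26.1% and 34.8% higher and 30.4%, 21.7%, 30.4% and 30.4% lower. COQ8A, which ubiquinone synthesis needs, rose by 1.87, 1.94, 2.18 and 2.64, and COQ2, an enzyme of the same pathway, changed by -0.97 and -1.5 at 2 nM. Of 26 mitochondrial protein import genes, 9 were higher and 7 lower and 5 and 6 at 20 nM, and 1 and 13 and 2 and 12 at 2 nM, with medians of -0.33 and -0.28 in the latter. The shares were 34.6%, 19.2%, 3.85% and 7.69% higher and 26.9%, 23.1%, 50% and 46.2% lower. PMPCB, a subunit of the protease that removes targeting sequences, changed by -1.5, -1.12, -1.30 and -1.30.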

How the data were processed

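Expression was measured on 26 one-colour Illumina arrays. The deposited values are intensities per probe on a linear scale; the authors exported them with BeadStudio, per the submitters' processing notes, and neither its version nor its settings were given there. The table held 22177 probes, of which 21101 had 1 gene symbol and 1076 none. Of its values, 20.4% were below 0, and every array had the same median. Intensities were floored at 10 and put on the log2 scale, with the probe of the highest mean intensity standing for each gene. Genes above an array's 40th percentile on at least 3 arrays were tested. limma 3.58.1 (R 4.3.3, statmod 1.5.0) fitted 1 mean for each label, treatment and series over all 26 arrays, with two-sided tests and Benjamini-Hochberg adjustment over the 12962 genes. Values after ± are SEs of the fit. The floor understates changes of dim genes, and the number of arrays limits the precision.

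Any member could be named; values on every array were given for the members with the largest called changes, those called in all 4 responses and the brightest of each complex. Members and gene lists were chosen with earlier results of these data known. No 2 arrays held identical values. Same-numbered untreated arrays of the 2 labels deviated together (r = 0.687 to 0.761 in series 1 and 0.327 to 0.814 in series 2), so their numbers were taken as pairs and blocked values stand beside the label differences. For WT-labelled replicates 7 and 8, though, a KO-labelled array of another number correlated best. Pairing by number is thus not secure in series 2, nor are the blocked values there. The numbers of the treated arrays did not pair (-0.0444 to 0.102). Other floors, normalization, filter, probe choice, fits, blocks and left-out arrays were tried, and the procedure was tested on simulated data.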

Additional observations from a re-analysis of the deposited data

Results flagged for a closer look

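In the 4-array untreated groups of series 2, some values had 1 array far from the others by Dixon's test, which flags about 1 in 20 groups by chance. On KO-labelled replicate 10, ATP5MC2 (9992.5), COX6A1 (2503.0), COX7B (2454.1) and NDUFB6 (1276.6) were the highest intensities of their group and UQCR10 (257.8) the lowest, and the median deviation of complex IV was the highest at 0.198 (log2). On WT-labelled replicate 10, COX5A (7740.7), NDUFA6 (622.9) and NDUFB7 (2230.3) were the highest, as was the median deviation of complex I at 0.0554. NDUFA9 (1355.1) was highest on WT-labelled replicate 8.

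The responses of the labels differed in limma's test for these members, as KO-labelled minus WT-labelled log2 change. At 20 nM the differences were -0.4294 for ATP5MJ, -0.8476 for NDUFA5, -0.4544 for NDUFB3 and -1.059 for NDUFV3. At 2 nM they were 0.3794 for ATP5MJ, 0.5734 for NDUFA13, -0.319 for NDUFA9, 0.2738 for NDUFB2, 0.3062 for NDUFS5, 1.548 for NDUFV3 and 0.279 for SDHA (adjusted p = 0.0488). NDUFA5 was at the floor on all arrays of series 2, and with a floor of 20 its 20 nM difference was 0. With series 1 fitted alone, limma gave adjusted p = 0.128 for NDUFA5, 0.104 for NDUFB3 and 0.0908 for NDUFV3 at 20 nM.

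The untreated difference of the labels itself differed between the series, as series 1 minus series 2. It was higher in series 1 by 0.2084 for ATP5F1E, 0.812 for ATP5MJ, 0.2221 for COX7A2, 0.5613 for COX7B, 0.4945 for NDUFA12, 0.719 for NDUFA6, 0.5948 for NDUFB6, 0.81 for UQCR10 and 0.742 for UQCR11. It was at -0.5959 for ATP5MC1, -0.2834 for ATP5PD, -0.2566 for COX5A, -0.6937 for NDUFA13, -1.103 for NDUFA3, -0.4237 for NDUFB5, -1.4 for NDUFV3 and -0.433 for SDHC. CDKN1A ran opposite in the same arrays, at -4.87 ± 0.49.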

How the results depend on the processing

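No called value of a named member turned its direction under the alternatives run. Without untreated replicates 4 and 10, a pair of medians near 0 changed sign: that of complex V in WT-labelled cells at 2 nM (-0.018 to 0.010) and that of all members in the label difference of series 1 (-0.020 to 0.019). Of the counts of members recomputed, 351 stayed within 1.5 times the value reported and 69 moved beyond it. Of the values of named members, 2284 stayed called or stayed uncalled, 127 lost a call and 3 gained one. The 2284 include values never called, whose changes of sign were not counted. The cause of these changes was not tested. In series 1 the label difference had 5 members higher and 5 lower, and these counts were 2 higher with a floor of 5, 1 and 1 with series 1 fitted alone, 1 lower with slide as a random block, and 16 and 14 without untreated replicates 4 and 10. In series 2 (4 and 5) they were 1 and 0 with the slide block and 11 and 15 without those replicates. The difference between the series (9 and 8) had 5 lower with a floor of 5, 5 and 4 with the slide block, and 19 and 17 without those replicates. The difference of responses at 20 nM (0 and 4) had 2 lower with a floor of 5, 1 and 0 with series 1 alone, and 7 and 17 without those replicates. That at 2 nM (6 and 1) had 2 and 0 with a floor of 5 and 15 and 4 without those replicates. WT-labelled cells at 2 nM had 38 higher without them, against 22. Without those replicates all genes were called more often too. In the label differences, 19.9% of all genes were then higher and 19.6% lower in series 1, and 13.1% and 14.9% in series 2. Between the series the shares were 22% and 19.9%. For the differences of responses they were 17.6% and 16% at 20 nM and 15.3% and 15.2% at 2 nM.

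With the replicate block the label differences had 8 members higher and 11 lower in series 1 and 13 and 10 in series 2. Between the series 13 and 16 were called. Of all genes, 3997, 2786 and 4624 were then called in either direction, against 1927, 1186 and 2716 without the block. The treated arrays shared only a number. For the difference of responses the block gave 1 and 13 members at 20 nM and 9 and 2 at 2 nM. Calls over all genes rose there from 1147 to 2868 and from 1547 to 3003. COX5A was among the members lower at 2 nM with the block, at -0.19 (limma adjusted p = 0.0267 with the block and 0.169 without). No paired analysis was possible for the responses because treated and untreated arrays share no replicate numbers.

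Leaving out 1 array at a time gave 27 to 36 higher and 8 to 9 lower in WT-labelled and 19 to 31 and 7 to 10 in KO-labelled cells at 20 nM, and 17 to 24 and 10 to 11, and 28 to 35 and 7 to 11, at 2 nM. In all 4 responses 11 to 18 were higher and 4 to 6 lower. The label difference had 1 to 9 and 1 to 13 in series 1, 3 to 5 and 3 to 11 in series 2, and 7 to 13 and 4 to 15 between the series. The differences of responses had 0 to 3 and 2 to 8 at 20 nM and 3 to 10 and 0 to 4 at 2 nM. Of the members called in all 4 responses whichever array was left out, UQCRQ lost its call in WT-labelled cells at 2 nM with a floor of 5 (adjusted p = 0.0685) and ATP5MC2 in KO-labelled cells at 20 nM with the mean of its probes. The alternative that adds NDUFA4 and NDUFA4L2 was not run. Dim probes limit NDUFS1, NDUFB1, NDUFC2 and NDUFA5.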
